A study of Mesocricetus auratus with 21 samples.

Results

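Whole testes of *Mov10l1*-/- golden hamsters (*Mesocricetus auratus*) were compared between 13 and 21 days postpartum (d.p.p.), to follow how a testis that loses its germ cells matures. The libraries were chosen by the genotype and age in their labels alone, which gave 4 of the 21 testis RNA-seq libraries of the series, 2 of each age, over all 22285 genes of the count table. The 4 carry different animal codes, and all are paired-end. The 2 *Mov10l1*+/+ (wild-type) libraries of each of these ages are used only to show where the knockout differed. The knockout allele lacks exon 20 of *Mov10l1*, which encodes part of the helicase domain, in every cell of the body. It goes back to 1 founder female whose heterozygous offspring were crossed to outbred wild-type animals, and homozygotes came from heterozygous parents.

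The deletion was made with CRISPR–Cas9 and pairs of guides on either side of exon 20, and the 4 DNA targets are shown because they define the allele that all knockout libraries share. They are written 5′ to 3′ as the labels give them, without a marked PAM:
Intron 19, target 1: gggtatcacatgacttgggg
Intron 19, target 2: ggtgttgggatcatagtgggg
Intron 20, target 3: tctccactcttccatgtgggg
Intron 20, target 4: taccattacatttgtcagggg

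Germ cells hold retrotransposons in check with PIWI-interacting RNAs (piRNAs), small RNAs bound by PIWI proteins. Without the RNA helicase MOV10L1, the study found piRNAs fully lost in juvenile hamster testes and incompletely lost in oocytes. A juvenile testis also holds somatic cells with their own schedule. Sertoli cells line the seminiferous tubules, divide early and then stop and mature, peritubular myoid cells form a contractile wall around the tubules, and Leydig cells between the tubules take up steroid hormone synthesis. In wild-type hamsters the first wave of germ cells enters meiosis in the same interval.

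Library totals lay between 14276555 and 39587799 counts in the knockout and between 3550217 and 20656904 in the wild type. The 10 most abundant genes took 52.6% of the counts in replicate 1 of the older knockout and 53.0% in replicate 2 of the older wild type, whose titles share a code, against 28.7% to 38.8% in the other 6. Knockout replicates correlated with Spearman's rho of 0.985 (younger) and 0.989 (older) across genes. Levels are given in CPM, the counts scaled to equal normalized library size, for replicates 1 and 2 of 13 d.p.p. and then replicates 1 and 2 of 21 d.p.p., and they compare libraries, not genes. In bulk tissue, fewer cells of a type and less RNA per cell cannot be told apart.

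*Mov10l1* itself stood at 1.39 and 0.168 CPM in the younger knockout libraries and at 0.115 and 0.128 CPM in the older ones. Wild-type levels, 48.1 and 91.9 CPM in younger and 139 and 129.9 CPM in older animals, lay far above every knockout library. The counts cover all exons, so transcripts that lack exon 20 would still be counted. With at most 22 counts in a knockout library, the gene did not pass the filter on low counts and was not tested between the ages.

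Between 13 and 21 d.p.p., 657 genes rose and 685 fell in the knockout testis among 14016 genes tested, at an adjusted p below 0.01 with edgeR's quasi-likelihood test. These are 4.69% and 4.89% of the genes tested. Counts of called list members below are to be read beside these shares, and a single call is no result about its list. The median log2 fold change was 1.49 among the genes that rose and -1.58 among those that fell. Of the former, 571 changed by more than 2-fold and 193 by more than 4-fold, and of the latter 618 and 221. Symbols were at hand for 72 of the genes that rose and 65 of those that fell. Without replicate 2 of 21 d.p.p., 427 and 349 genes were called, without replicate 1 of 21 d.p.p. 499 and 383, and without replicate 2 of 13 d.p.p. 1077 and 1203.

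In the steroid and sterol list, *CYP11A1*, *Cyp27a1* and the lipid carrier *Pctp* rose. *CYP11A1*, the side-chain cleavage enzyme that makes pregnenolone from cholesterol and so begins all steroid synthesis, stood at 42.8 and 61.6 CPM in the younger and 447 and 325 CPM in the older libraries. Both older libraries lay several times above both younger ones, and the gene rose 7.3-fold (log2 fold change 2.87 ± 0.257 SE, adjusted p = 0.00036). *Cyp27a1*, sterol 26-hydroxylase of mitochondria, was low, at 0.315 and 0.225 CPM and then 2.18 and 1.67 CPM, and rose by 2.85 on the log2 scale (adjusted p = 0.0043). *Pctp*, a phosphatidylcholine transfer protein, rose from 4.79 and 4.94 to 11.3 and 10.7 CPM (log2 fold change 1.16, adjusted p = 0.0066). These were the 3 of 10 tested members of the steroid and sterol list that rose, and none fell, although *Pnmt*, an enzyme of adrenaline synthesis that the list also holds, had a log2 fold change of -2.06 that missed the threshold (adjusted p = 0.0425; 2 libraries a group). The sterol enzyme *Hmgcs1* was close to it, at 85.3 and 64.3 CPM and then 143 and 148 CPM (log2 fold change 0.94, adjusted p = 0.0108). The median log2 fold change of the list was 0.56, beside 0.002 over all genes tested. Without replicate 1 of 21 d.p.p. 1 member was called, and likewise without replicate 2, *CYP11A1* in both cases.

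Sertoli cell genes rose and fell within one list. *Ptgds*, prostaglandin D2 synthase, went from 217 and 264 CPM to 775 and 674 CPM, a log2 fold change of 1.58 ± 0.213 SE (adjusted p = 0.0018). *Cst12*, a cystatin of the testis, stood at 216 and 221 CPM and then at 707 and 547 CPM (log2 fold change 1.51, adjusted p = 0.0023). *Defb119*, a defensin, rose from 19.7 and 16.6 to 56.7 and 44.7 CPM (log2 fold change 1.47, adjusted p = 0.0016). *Inhbb*, which encodes the beta B subunit of inhibin and activin, fell from 283 and 302 to 121 and 165 CPM (log2 fold change -1.05, adjusted p = 0.0091), and this call was lost without replicate 1 of 21 d.p.p. (-0.84, adjusted p = 0.066), without replicate 2 of that age (adjusted p = 0.0135) and without replicate 2 of 13 d.p.p. (adjusted p = 0.0113). So 3 of the 13 Sertoli members, all tested, rose and 1 fell, with a median log2 fold change of 0.77. In the joint fit of the 8 libraries none of the 4 was called. *Inha*, the inhibin alpha subunit, was high at both ages, at 663 and 494 CPM and then 791 and 792 CPM, and its log2 fold change of 0.43 ± 0.23 SE missed the threshold (adjusted p = 0.197). The secreted chaperone *Clu*, at 2498 and 2385 CPM and then 4199 and 4220 CPM, missed it too (log2 fold change 0.77, adjusted p = 0.0606). The summed level of the list, most of it from *Clu*, was 4484 and 4364 CPM at 13 d.p.p. and 7529 and 7374 CPM at 21 d.p.p.

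**Figure D1:**
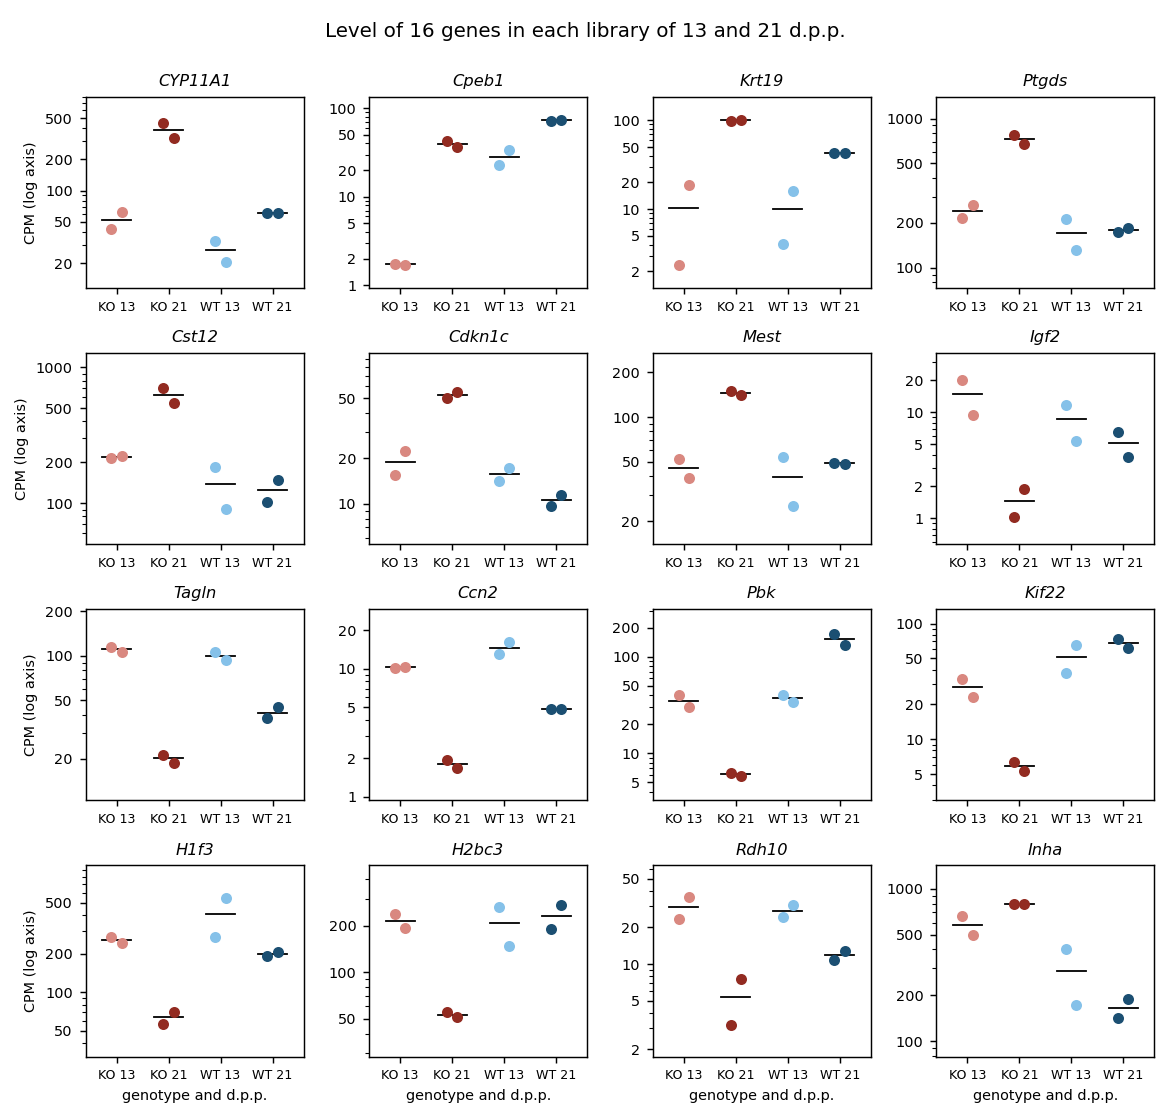
Level in CPM (log axis, a scale of its own in each panel) of 16 genes in the 8 libraries, grouped by genotype (KO, *Mov10l1*-/-; WT, wild type) and age in d.p.p. Each point is 1 library and each line the mean of 2. The *CYP11A1* points of KO 21 d.p.p., at 447 and 325 CPM, lie above all 6 others, and those of *Pbk*, at 6.25 and 5.85 CPM, below all 6 others.

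Of 16 genes of cell division and DNA replication, 5 fell. *Pbk*, a kinase of mitosis, went from 40.3 and 30.2 CPM to 6.25 and 5.85 CPM, a log2 fold change of -2.56 ± 0.212 SE (adjusted p = 0.00027). *Kif22*, a kinesin that moves chromosomes on the spindle, fell from 33.2 and 23.0 to 6.36 and 5.34 CPM (log2 fold change -2.29, adjusted p = 0.00059). *Cdk6*, a kinase that drives entry into the cell cycle, fell from 44.4 and 41.2 to 11.9 and 18.1 CPM (log2 fold change -1.52, adjusted p = 0.0023). *Lmnb1*, which encodes lamin B1, and *Mycn*, a growth-promoting transcription factor, also fell (log2 fold changes -1.37 and -1.01, adjusted p = 0.0078 and 0.0063). All 16 were tested, none rose, and the median log2 fold change was -0.64. In the joint fit, and without either library of 21 d.p.p., 3 were called. Other members were not called. *Ezh2*, a histone methyltransferase, had 78.0 and 60.2 CPM and then at 65.8 and 57.1 CPM (log2 fold change -0.18, adjusted p = 0.501), and *Cdk4* at 114 and 96.0 CPM and then at 109.6 and 119 CPM (log2 fold change 0.11, adjusted p = 0.688).

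Of 10 histone genes, 9 fell. *H1f3*, a linker histone, went from 270.1 and 242 CPM to 56.6 and 70.6 CPM, and *H1f2* at 255 and 248 CPM and then at 65.8 and 76.2 CPM. The log2 fold changes were -2.03 ± 0.198 SE and -1.84 ± 0.184 SE (adjusted p = 0.0005 for both). The core histones *H2bc3* and *H2bu2* fell by 2.05 and 1.78 on the log2 scale (adjusted p = 0.00045 and 0.0004), *H2bc3* from 239 and 193 to 55.1 and 51.0 CPM. All 10 members were tested, 9 fell, and *H2aw* had a log2 fold change of -1.06 (adjusted p = 0.0124). The median was -1.77. Without 1 library at a time, between 7 and 10 members were called lower, and in the joint fit 6. The summed level of the list was 2194 and 1845 CPM in the knockout at 13 d.p.p. and 676 and 658 CPM at 21 d.p.p., while the wild-type libraries lay between 2300.0 and 2876 CPM at both ages. In the wild type 6 of the 10 members had a negative log2 fold change and 4 a positive one, and none was called. The interaction was negative for all 10 and called for 1. Histone genes have near-identical copies over which fractional counting spreads reads, so the values of single members are uncertain. Most replication histone transcripts carry no poly(A) tail, and the labels give both polyA RNA and depletion of ribosomal RNA for these libraries.

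Inhibitors of the cell cycle did not move as one. *Cdkn1c*, an imprinted inhibitor of cyclin-dependent kinases, rose from 15.6 and 22.5 to 50.4 and 55.1 CPM (log2 fold change 1.45 ± 0.201 SE, adjusted p = 0.002). *Cdkn2c*, which inhibits CDK4 and CDK6, fell from 28.4 and 32.6 to 13.4 and 5.67 CPM (log2 fold change -1.73, adjusted p = 0.0091), and it was no longer called with RLE size factors or without replicate 2 of 21 d.p.p. (-1.20, adjusted p = 0.0155). The other 6 members were not called. Among them *Ddit4*, a stress-induced inhibitor of mTOR signalling, stood at 109 and 223 CPM and then at 325 and 319 CPM (log2 fold change 0.94, adjusted p = 0.0507).

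**Figure D2:**
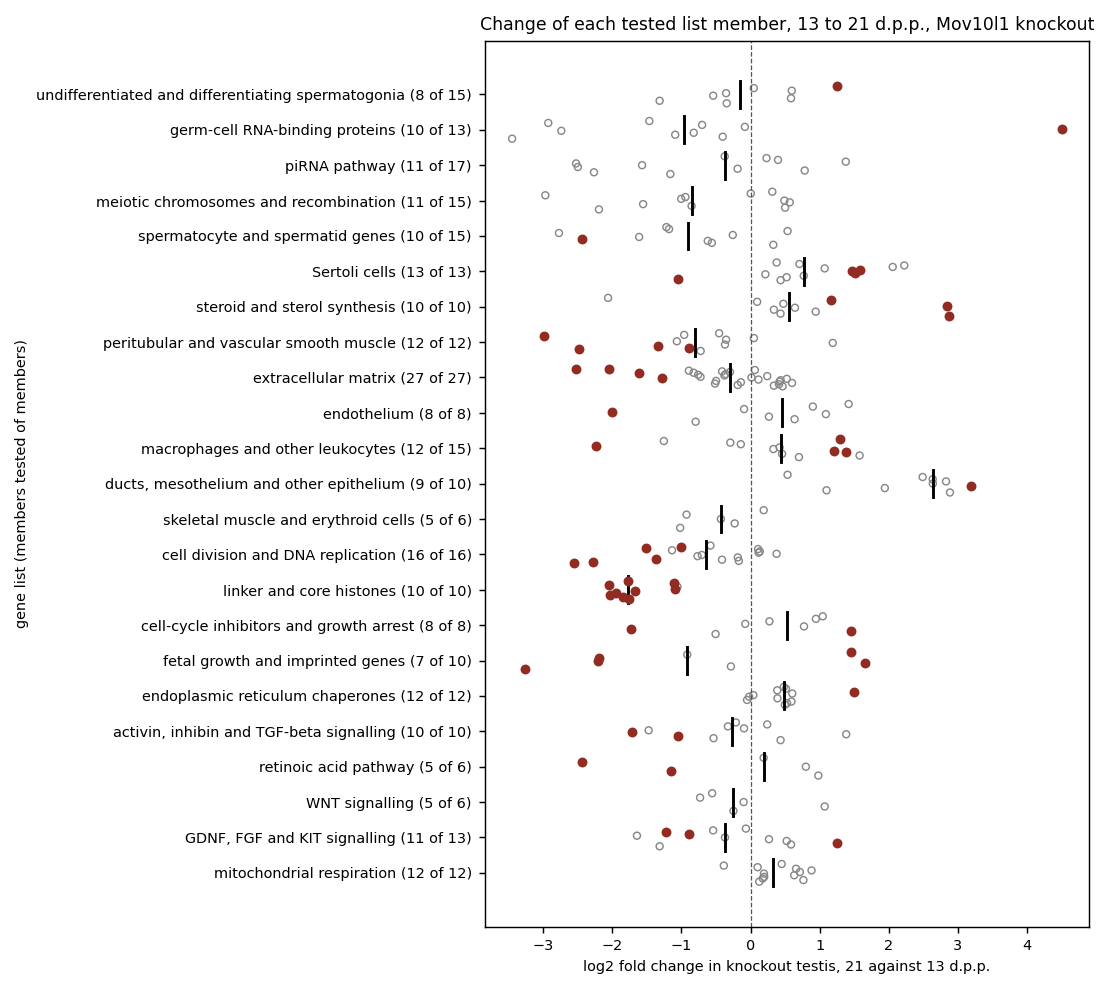
Log2 fold change in the knockout testis (21 against 13 d.p.p., horizontal axis) of every tested member of the 23 gene lists (vertical axis, with the number tested of the number in the list). Filled points are genes with an adjusted p below 0.01, open points all others, and vertical bars list medians. The histone list has 9 of 10 members filled and to the left of 0.

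Imprinted and growth-related genes split in the same way. *Igf2*, the fetal insulin-like growth factor, went from 20.0 and 9.49 CPM to 1.03 and 1.90 CPM, and fell by 3.26 ± 0.427 SE on the log2 scale (adjusted p = 0.0016). *Plag1*, a zinc finger factor known to activate *Igf2*, fell from 4.66 and 8.51 to 1.61 and 1.33 CPM (log2 fold change -2.21, adjusted p = 0.0041; adjusted p = 0.0188 without replicate 2 of 21 d.p.p.), and *Magel2* fell as well (log2 fold change -2.19, adjusted p = 0.0046). *Mest*, another imprinted gene, rose from 52.2 and 38.8 to 149.5 and 141 CPM (log2 fold change 1.66 ± 0.20 SE, adjusted p = 0.0011). Of the 10 members, 7 were tested, 2 rose (*Mest* and *Cdkn1c*) and 3 fell, with a median log2 fold change of -0.92. In the joint fit the *Mest* and *Magel2* calls were lost, and that of *Magel2* also without replicate 1 of 21 d.p.p.

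Of 12 genes of peritubular and vascular smooth muscle, 4 fell. *Tagln*, the actin-binding transgelin, went from 115 and 107 CPM to 21.4 and 18.9 CPM, a log2 fold change of -2.48 ± 0.173 SE (adjusted p = 0.00022). *Synpo*, synaptopodin of actin bundles, fell from 25.3 and 13.6 to 1.95 and 2.85 CPM (log2 fold change -2.98, adjusted p = 0.0009). *Cald1*, caldesmon, and *Mylk*, myosin light chain kinase, fell by 1.34 and 0.89 on the log2 scale (adjusted p = 0.0012 and 0.0078). The *Mylk* call was lost without replicate 1 of 13 d.p.p. or without either library of 21 d.p.p. All 12 were tested, none rose, and the median was -0.81. In the joint fit 2 were called lower. *Myh11*, the smooth muscle myosin that defines these cells, stood at 419 and 364 CPM and then at 227 and 253 CPM, and missed the threshold (log2 fold change -0.72, adjusted p = 0.0292). *Pdlim4* was at 68.3 and 57.2 CPM and then at 67.5 and 63.7 CPM (log2 fold change 0.05, adjusted p = 0.858).

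The extracellular matrix list held 27 genes, all tested, of which 4 fell and none rose. *Ccn2* and *Cyr61*, matricellular proteins that cells secrete under mechanical load, went from 10.1 and 10.4 to 1.95 and 1.69 CPM and from 20.9 and 22.2 to 3.61 and 6.62 CPM. The log2 fold changes were -2.52 ± 0.251 SE and -2.05 ± 0.273 SE (adjusted p = 0.0005 and 0.0016). *Ltbp3*, which binds latent TGF-beta, and the small proteoglycan *Prelp* fell by 1.62 and 1.28 (adjusted p = 0.0015 and 0.0035). The *Prelp* call was lost without either library of 21 d.p.p. (adjusted p = 0.0116 and 0.0171). The fibrillar collagen *Col1a1*, the most abundant collagen of connective tissue, was at 410 and 402 CPM and then at 543 and 588 CPM (log2 fold change 0.46, adjusted p = 0.115). The list's median log2 fold change was -0.30.

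Signalling genes changed singly. *Rdh10*, which makes retinaldehyde, the precursor of retinoic acid, fell from 23.6 and 35.8 to 3.15 and 7.54 CPM (log2 fold change -2.44 ± 0.367 SE, adjusted p = 0.0029). *Aldh1a3*, which oxidizes retinaldehyde to retinoic acid, fell from 214 and 267 to 106 and 114 CPM (log2 fold change -1.15, adjusted p = 0.0043). *Aldh1a2*, of the same function, was at 3.53 and 2.16 CPM and then at 5.04 and 6.03 CPM (log2 fold change 0.98, adjusted p = 0.0558). So 2 of 5 tested retinoic acid genes fell and none rose (median log2 fold change 0.19). Of the 10 members of the activin, inhibin and TGF-beta list, the antagonist *Fstl3* and *Inhbb* fell (*Fstl3* from 18.5 and 16.8 to 3.84 and 6.77 CPM, log2 fold change -1.71, adjusted p = 0.0035). *Spred1* and *Spred2*, inhibitors of RAS signalling, fell by 0.89 and 1.22 on the log2 scale (adjusted p = 0.0067 and 0.0042). *Kit*, the receptor for stem cell factor, which Leydig cells carry as well as spermatogonia, rose from 11.3 and 18.03 to 33.8 and 37.6 CPM (log2 fold change 1.26 ± 0.228 SE, adjusted p = 0.0063). Its ligand *Kitl*, from Sertoli cells, was at 266 and 338 CPM and then at 425 and 451 CPM (log2 fold change 0.52, adjusted p = 0.0937). Of 11 tested genes of GDNF, FGF and KIT signalling, 1 rose and 2 fell (median -0.37). Without replicate 1 of 21 d.p.p. the *Spred1*, *Spred2* and *Aldh1a3* calls were lost, and without replicate 2 those of *Spred1*, *Aldh1a3* and *Kit*.

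Genes of other resident cells were examined to see what else differed between the ages. In the leukocyte list, 12 of 15 members were tested, 3 rose and 1 fell. *Cytip*, an adaptor of lymphoid and dendritic cells, stood at 25.3 and 32.0 CPM and then at 73.4 and 60.6 CPM (log2 fold change 1.20, adjusted p = 0.0031). The interleukin 10 receptor subunit *Il10ra* and the immunoglobulin heavy chain *Ighm* rose by 1.38 and 1.29 on the log2 scale (adjusted p = 0.0043 and 0.0069), and *P2ry12*, a purinergic receptor of resident macrophages and microglia, fell from 3.15 and 2.36 to 0.688 and 0.513 CPM (log2 fold change -2.23, adjusted p = 0.0065). None of the 4 was called without replicate 1 of 21 d.p.p., and *Cytip* alone without replicate 2. *Csf1r*, the receptor that defines macrophages, was at 10.3 and 10.9 CPM and then at 18.8 and 16.2 CPM (log2 fold change 0.70, adjusted p = 0.0265), while the T cell gene *Cd3e* was below 0.4 CPM in each library. The summed level of the list was 80.7 and 77.1 CPM and then 144 and 125 CPM. Of 8 endothelial genes 1 was called, the adhesion molecule *Mcam*, which smooth muscle also carries, and it fell from 56.2 and 63.8 to 16.2 and 14.03 CPM (log2 fold change -2.01, adjusted p = 0.00032). The endothelial marker *Vwf* was at 1.70 and 4.83 CPM and then at 6.65 and 4.11 CPM (log2 fold change 0.64, adjusted p = 0.329).

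Markers of ducts, mesothelium and other epithelium were higher in sum in both libraries of 21 d.p.p., and several of them mainly in replicate 2. Their summed level was 70.7 and 83.2 CPM at 13 d.p.p., 187 CPM in replicate 1 of 21 d.p.p. and 243 CPM in replicate 2. *Krt19*, a keratin of simple epithelium, went from 2.33 and 18.6 CPM to 99.3 and 102 CPM, and it was the only one of the 9 tested members that was called (log2 fold change 3.19 ± 0.647 SE, adjusted p = 0.0099). The replicates of 13 d.p.p. differed several-fold, and the call was lost with RLE size factors (adjusted p = 0.011), with DESeq2 (adjusted p = 0.0391) and without replicate 2 of 21 d.p.p. (adjusted p = 0.011). *Epcam*, a surface protein of epithelia, was at 0.315 and 1.57 CPM, then 1.26 CPM in replicate 1 of 21 d.p.p. and 11.6 CPM in replicate 2 (log2 fold change 2.64, adjusted p = 0.0638). *Krt7* was at 2.08 and 1.49 CPM and then at 2.87 and 10.4 CPM, and *Msln*, a mesothelial surface protein, at 0.126 and 0.730 CPM and then at 1.43 and 5.75 CPM. *Lsr*, a receptor of lipoproteins and a tight junction protein, was at 64.03 and 59.5 CPM and then at 80.1 and 100.8 CPM (log2 fold change 0.54, adjusted p = 0.0587). The claudin *Cldn8* was listed at 0 in replicate 1 of 13 d.p.p. and reached 1.49 CPM only in replicate 2 of 21 d.p.p. The list's median log2 fold change was 2.63, and 0.57 without replicate 2 of 21 d.p.p., when no member of 8 tested was called. Without replicate 1 of that age 6 of 10 were called. The keratins *Krt8* and *Krt18* of the Sertoli list were likewise highest in that library, at 11.6 and 6.98 CPM against at most 3.44 and 1.83 CPM in the other 3. Their part in the other changes was not tested.

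**Figure D3:**
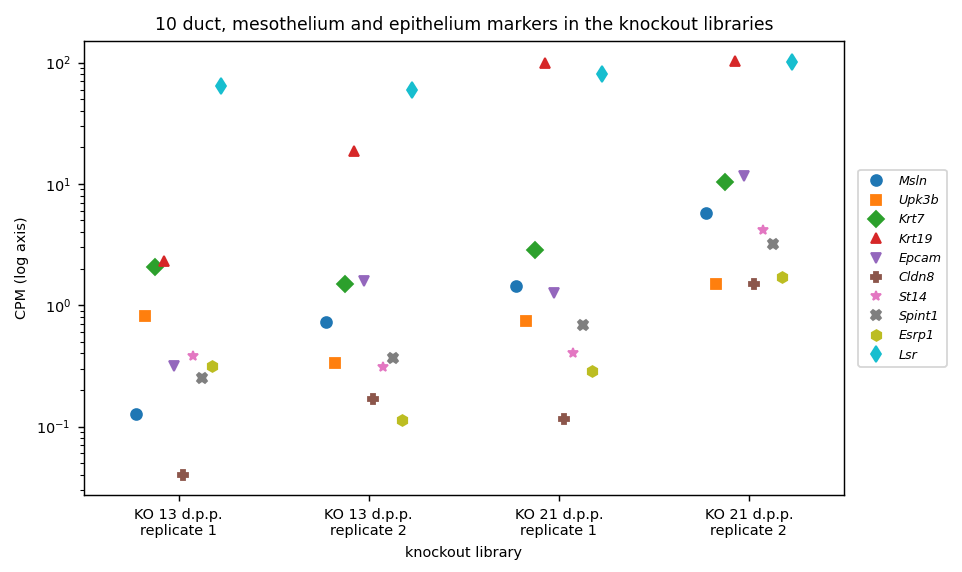
Level (CPM, log axis) of the 10 duct, mesothelium and epithelium markers in the 4 knockout libraries, 1 symbol a gene; *Cldn8* in replicate 1 of 13 d.p.p. is at 0 and drawn at the lower edge. In replicate 2 of 21 d.p.p., *Epcam* reached 11.6 CPM, *Krt7* 10.4 CPM and *Msln* 5.75 CPM, above the other 3 libraries.

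Most germ-cell genes were low in the knockout at both ages. Of the spermatogonial list, 8 of 15 members passed the filter on low counts. *Sohlh1*, a transcription factor of differentiating spermatogonia, stood at 0.126 and 0.112 CPM and then at 0.286 and 0.154 CPM, with at most 6 counts in a library, against 16.9 to 62.1 CPM in the wild-type libraries. *Uchl1*, a ubiquitin hydrolase of spermatogonia, was at 0.315, 0.112, 0.115 and 0.128 CPM, against 5.34 to 13.6 CPM. *Zbtb16*, a marker of undifferentiated spermatogonia, was at 2.52 and 5.28 CPM and then at 2.35 and 3.87 CPM (log2 fold change -0.34, adjusted p = 0.562), and *Etv5*, which Sertoli cells also express, at 23.6 and 19.4 CPM and then at 13.2 and 16.4 CPM (log2 fold change -0.54, adjusted p = 0.0774). The receptor *Kit* was the only member called.

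Meiotic and piRNA genes were not called in either direction in the main edgeR fit. Of 15 genes of meiotic chromosomes and recombination 11 were tested there, with 0 higher and 3 lower at an unadjusted p below 0.05. Of 17 piRNA pathway genes 11 were tested there, with 1 higher and 3 lower at that level. DESeq2 called 2 lower in each list. With no filter on low counts edgeR called 5 lower in each list, and with the replicate block 1 piRNA gene lower. *Sycp1*, of the synaptonemal complex that joins chromosomes in meiosis, was at 9.64 and 1.43 CPM and then at 1.09 and 1.26 CPM (log2 fold change -2.19, adjusted p = 0.0647). *Sycp3*, of the same complex, was at 4.66 and 1.29 CPM and then at 4.13 and 4.03 CPM (log2 fold change 0.50, adjusted p = 0.513). In wild-type testes *Sycp1* went from 58.8 and 33.6 to 605 and 455 CPM. *Tex15* and *Tdrd7*, piRNA factors, were the most abundant of their list, *Tdrd7* at 16.5 and 19.8 CPM and then at 16.8 and 15.5 CPM (log2 fold change -0.19, adjusted p = 0.474). *Tex15* was at 30.2 and 18.6 CPM and then at 34.0 and 30.7 CPM (log2 fold change 0.40, adjusted p = 0.252).

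Replicate 1 of 13 d.p.p. stood apart from the other knockout libraries in these genes. *Ddx4*, the helicase that marks germ cells, was at 4.79 CPM in it, 0.955 CPM in replicate 2 and 0.115 and 0.334 CPM at 21 d.p.p. (log2 fold change -3.45 ± 0.837 SE, adjusted p = 0.0196; without this library -1.94, adjusted p = 0.0804). *Dazl*, an RNA-binding protein of germ cells, was at 4.79, 1.77, 1.32 and 1.67 CPM (log2 fold change -1.09, adjusted p = 0.136). Over the 54 genes of the RNA-binding, piRNA, meiotic and spermatocyte lists with a mean of at least 10 CPM in wild type of 21 d.p.p., replicate 1 of 13 d.p.p. held a median of 2.05% of that mean (quartiles 1.54% and 3.05%) and was the highest of the 4 knockout libraries for 41 genes. The medians of the other 3 were 0.567%, 0.524% and 0.503%. Whether material or reads of an older wild-type testis add to this library was not tested, and the falls and negative interactions of germ-cell genes below rest in part on it. The younger wild-type libraries held 14.98% and 20.5%. In the same library *Piwil1*, a PIWI protein of spermatocytes, stood at 5.48 CPM and *Ybx2* at 7.44 CPM. Wild type of 13 d.p.p. held 4.69 and 7.29 CPM of *Piwil1* and 3.59 and 2.59 CPM of *Ybx2*. Without this library the median log2 fold change went from -0.85 to 0.17 for the meiotic list, from -0.37 to -0.07 for the piRNA list and from -0.96 to -0.29 for the RNA-binding list, and *Cpeb1* was the only member called. Without replicate 2 of 13 d.p.p., when replicate 1 alone stood for that age, 5 meiotic, 7 piRNA and 6 RNA-binding genes were called lower.

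**Figure D4:**
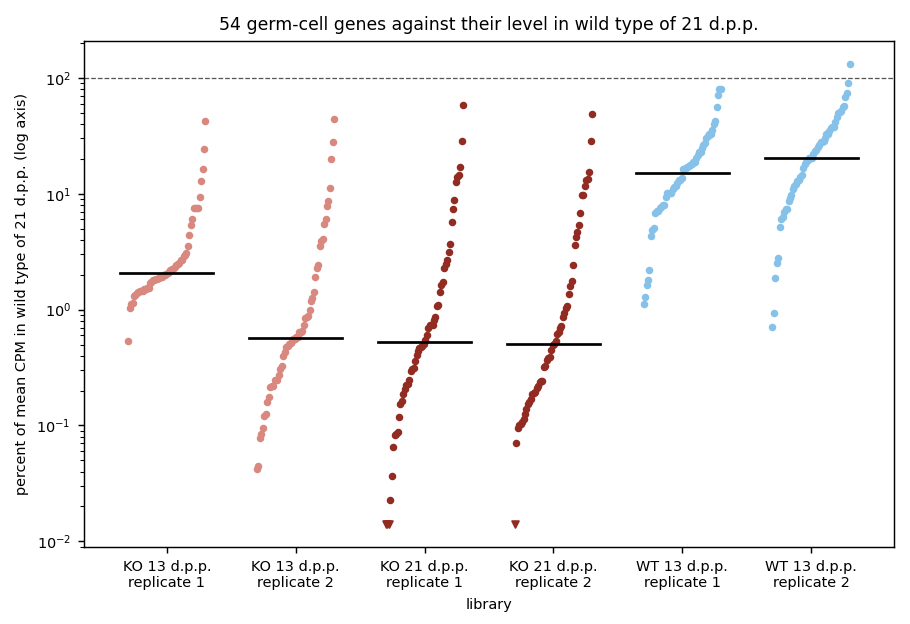
Level of 54 germ-cell genes in each library as a percent of the gene's mean CPM in the 2 wild-type libraries of 21 d.p.p. (log axis); each point is 1 gene, sorted within a library, triangles mark genes at 0, black bars medians and the dashed line 100%. The median was 2.05% in knockout replicate 1 of 13 d.p.p. and between 0.503% and 0.567% in the other 3 knockout libraries.

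A pair of genes from these lists did change, 1 of 10 tested in the RNA-binding list and 1 of 10 in the spermatocyte and spermatid list (median log2 fold change -0.90). Over all genes tested 4.69% rose and 4.89% fell, so these calls concern single genes and not the lists. *H2bc1*, a histone H2B of the testis, fell from 13.0 and 4.58 to 1.78 and 1.49 CPM (log2 fold change -2.44 ± 0.485 SE, adjusted p = 0.0092). Without replicate 1 of 13 d.p.p. its log2 fold change was -1.51 (adjusted p = 0.0126), and the call was also lost without replicate 2 of 21 d.p.p. (adjusted p = 0.0301) and with RLE size factors (adjusted p = 0.0103). *Cpeb1*, which controls the translation of stored mRNAs by their poly(A) tails, rose and did so more than any other gene with a symbol. It went from 1.76 and 1.69 CPM to 42.9 and 36.02 CPM, a log2 fold change of 4.503 ± 0.217 SE (adjusted p = 8.8e-05). Both libraries of each age lay close together. *Cpeb1* was called in each of the 10 other fits, with log2 fold changes from 4.38 to 4.63. *Ddx43*, a DEAD-box helicase of the same list, was at 4.66 and 4.30 CPM and then at 3.67 and 4.798 CPM (log2 fold change -0.08, adjusted p = 0.85).

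The ranked genes not yet described follow. *Slc30a3*, a zinc transporter, went from 1.58 and 2.39 to 13.4 and 21.6 CPM (log2 fold change 3.09 ± 0.312 SE, adjusted p = 0.00052), and *Slc41a2*, a magnesium transporter, from 3.72 and 3.62 to 30.1 and 24.2 CPM (log2 fold change 2.87, adjusted p = 0.00022). *Apoa1*, the main protein of high-density lipoprotein, stood at 4.98 and 9.07 CPM and then at 41.8 and 38.8 CPM (log2 fold change 2.47, adjusted p = 0.00062). *Rflnb*, refilin B of the actin cytoskeleton, rose from 9.89 and 12.7 to 76.6 and 79.2 CPM (log2 fold change 2.76 ± 0.184 SE, adjusted p = 0.0002). *Cacng4*, *Rell2*, *Fam169a* and *Bend6* rose by 2.30 to 2.75 on the log2 scale (adjusted p between 0.00052 and 0.0083), and *Rell2*, below 0.3 CPM at 13 d.p.p., was not called without any 1 of the 4 libraries, nor *Cacng4* without replicate 2 of 21 d.p.p. (adjusted p = 0.0214).

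Among the genes that fell, *Bcam*, a laminin receptor of basement membranes, went from 109.9 and 143 to 21.9 and 25.5 CPM (log2 fold change -2.43 ± 0.196 SE, adjusted p = 0.00027). *Dusp8*, a phosphatase of stress-activated kinases, fell from 15.6 and 10.8 to 1.20 and 1.90 CPM (log2 fold change -3.05, adjusted p = 0.00057). *Itga8*, an integrin subunit, and *Bach2*, a transcription factor, fell by 2.58 and 2.43 on the log2 scale (adjusted p = 0.0033 and 0.001; *Itga8* 0.0117 without replicate 2 of 21 d.p.p.). Of genes without a symbol, ENSMAUG00000011815 had 3 and 1 counts at 13 d.p.p. and 840 and 1089 at 21 d.p.p., at least 278-fold higher against a floor of 3 counts a library. ENSMAUG00000013848 had 0 and 2 counts and then 194 and 77, at least 47.9-fold higher. ENSMAUG00000011552 and ENSMAUG00000008229 fell by 4.48 and 4.44 on the log2 scale (adjusted p = 0.0009 and 0.00022), the latter from 9.20 and 8.51 to 0.401 and 0.411 CPM.

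In the 4 wild-type libraries 466 of 13178 genes rose and 88 fell, 3.54% and 0.668% of those tested. Of these calls 84.1% were higher, and 67.5% with DESeq2, 54.8% without replicate 2 of 13 d.p.p. and 94.7% without replicate 1 of 21 d.p.p., when 508 and 19 genes were called lower. The common biological coefficient of variation was 0.301 in the wild type and 0.178 in the knockout, so a gene called in the knockout alone is not shown to differ from the wild type. Knockout and wild-type libraries are separate, but titles of both genotypes share codes. Of the genes called lower in the knockout, 57 were called lower in the wild type too, 8.32% of the knockout's list and 64.8% of the wild type's. Of those called higher, 35 were shared, 5.33% and 7.51%. Among the 606 genes that rose in the knockout and were tested in the wild type, 78.7% had a positive log2 fold change there (median 0.48), and among the 675 that fell 73.3% had a negative one (median -0.92), while 48.6% of all genes tested in the wild type were positive. The genes that rose in the wild type had a median log2 fold change of 4.14 there, and the 306 of them tested in the knockout had a median of -0.25.

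The difference between the genotypes in this change was tested directly as the interaction of age and genotype over the 8 libraries. It was called for 314 of 14941 genes, with a more negative change in the knockout for 309 (2.07%) and a more positive one for 5 (0.0335%). Without either knockout library of 21 d.p.p. 1 gene was called, without replicate 1 of 13 d.p.p. 63, and without wild-type replicate 1 of 21 d.p.p. 62, all of them more negative. With DESeq2 15.4% of the calls were more positive, against 1.59% here. Of the 309, 203 rose in the wild type. Of the same 309, 90 were called lower in the knockout, with a median log2 fold change of -2.36, and their median in the wild type was 0.85, where 12 of them were called higher. Among these 90 are *Pbk* (interaction -4.58 on the log2 scale, adjusted p = 0.0015), at 40.2 and 34.3 CPM and then 174 and 133 CPM in the wild type, *Kif22* (-2.67, adjusted p = 0.0075) and *H2bc1* (-6.28, adjusted p = 0.0018). The histone *H2ax*, whose phosphorylated form marks DNA breaks, was another (-2.28, adjusted p = 0.0044).

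**Figure D5:**
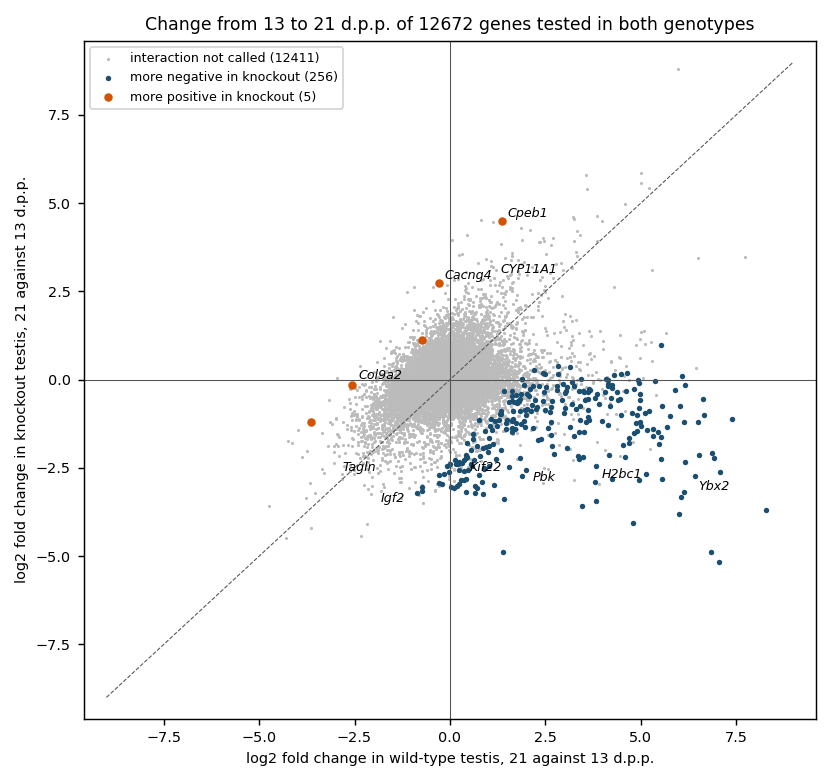
Log2 fold change of 21 against 13 d.p.p. in wild-type (horizontal) and knockout testis (vertical) for the 12672 genes tested in both; each point is 1 gene, coloured by the call of the interaction, and the dashed line marks equal change. The 256 blue genes (more negative in the knockout) lie below the line, mostly with little change or a fall in the knockout; the 5 orange genes lie above it.

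The genes with the largest negative interactions rose in the wild type, and in the knockout each of the 6 named here was highest in replicate 1 of 13 d.p.p. *Ptchd3* stood at 1.84 and 0.470 CPM and then 307 and 293 CPM in wild type, and at 5.99 and 0.140 CPM and then at 0.172 and 0.205 CPM in the knockout (interaction -11.57, adjusted p = 0.0051). *Tex101*, a surface protein of germ cells, *Ybx2*, an mRNA-binding protein of spermatocytes, *Piwil1* and *Hormad1*, a protein of meiotic chromosome axes, had interactions between -9.21 and -8.90 (adjusted p between 0.0017 and 0.0096). *Lypd9* had at most 4 counts in a knockout library, so its fitted interaction of -10.06 (adjusted p = 0.0069) depends on how the fit treats counts near 0 and is no measure of size. Without replicate 1 of 13 d.p.p. the *Piwil1* interaction was -5.44 (adjusted p = 0.0365), that of *Hormad1* -4.77 (adjusted p = 0.0707), that of *Tex101* -6.07 (adjusted p = 0.119), that of *Ptchd3* -7.31 (adjusted p = 0.0172) and that of *Ybx2* -7.80 (adjusted p = 0.0053).

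Of the 5 genes with a more positive change in the knockout, 3 have a symbol. The interaction of *Cpeb1* was 3.12 (adjusted p = 0.0019). It rose from a level in the knockout of 13 d.p.p. that was far below the 22.8 and 33.4 CPM of the wild type, which itself reached 71.8 and 74.5 CPM at 21 d.p.p. (log2 fold change 1.35, adjusted p = 0.033). The *Cpeb1* interaction missed the threshold without replicate 1 of 13 d.p.p., either knockout library of 21 d.p.p. or wild-type replicate 1 of 21 d.p.p. (adjusted p between 0.0117 and 0.0178). The calcium channel subunit *Cacng4* went from 0.378 and 0.337 to 2.24 and 2.59 CPM in the knockout and from 6.08 and 5.64 to 5.19 and 4.71 CPM in wild type (interaction 3.01, adjusted p = 0.0093), and missed it without any 1 of the 8 libraries. *Col9a2*, a collagen chain, stood at 42.4 and 30.7 CPM and then at 32.3 and 34.6 CPM in the knockout, while the wild type went from 32.5 and 40.4 to 4.58 and 7.91 CPM (interaction 2.39, adjusted p = 0.0096). This call was lost without any 1 of the 4 knockout libraries (adjusted p between 0.0296 and 0.0479), without wild-type replicate 2 of 13 or replicate 1 of 21 d.p.p. (0.0137 and 0.0469) and with RLE size factors (0.0105). With the code in the sample titles as a block, *Cpeb1* alone of these was called (interaction 3.22, adjusted p = 0.00016). *Cacng4* (2.94, adjusted p = 0.062) and *Col9a2* (2.03, adjusted p = 0.0458) missed the threshold under that block. For *CYP11A1* the interaction of 1.69 in the main fit missed the threshold (adjusted p = 0.0415), as did that of *Cdkn1c* (2.02, adjusted p = 0.0112) and *Ptgds* (1.54, adjusted p = 0.0521).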

How the data were processed

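RNA was extracted from whole testes, depleted of ribosomal RNA, made into directional libraries and sequenced paired-end. The authors aligned the reads with STAR 2.7.3a and counted them over exons with featureCounts 2.0.0, sharing reads that map or overlap several times as fractions, and deposited these estimated counts per gene without normalization. Genome and annotation were mesAur1 and Ensembl. Counts were rounded to whole numbers. The reference annotation in hand shares 0 identifiers with the table, so symbols came from the study's lists of changed genes and cover 1044 genes, to which all gene lists are thereby limited. Genes in the study's lists had been called changed in the knockout, so all genes tested are no matched background for the gene lists. The members and lists were chosen with earlier results of these data known.

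The 4 *Mov10l1*-/- libraries were fitted by themselves (edgeR 4.0.16, R 4.3.3; TMM, filterByExpr, quasi-likelihood test, Benjamini-Hochberg adjustment, called below 0.01), the 4 wild-type libraries likewise, and the interaction over 8 libraries. P values measure the spread between 2 animals a group. CPM uses TMM library sizes over the 8 libraries. Tables and plots were made in Python 3.11.15 with numpy 2.4.6, matplotlib 3.10.9 and pandas 2.3.3. Each fit was tested on simulated data. The knockout fit recovered 53 of 113 changes of 1 on the log2 scale and 87 of 87 changes of 2. For changes of 2, the wild-type fit recovered 52 of 110 and the interaction fit 2 of 96. False calls numbered 5 in the knockout fit, 2 in the wild-type fit and 0 in the interaction fit. A missing call carries little weight in the wild type and the interaction, and limited weight for 2-fold changes in the knockout.

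Named were *Mov10l1*, 13 marker genes, the 12 genes with a symbol that rose and the 12 that fell most, at a mean of at least 1 CPM at one age and with no overlap between ages, 2 without a symbol in each direction, up to 6 interactions a direction, and from each of 23 lists up to 4 called members, or the most abundant to make 2. Other genes named (*Hmgcs1*, *Pnmt*, *Clu*, *Ezh2*, *Cdk4*, *H2aw*, *Lmnb1*, *Ddit4*, *Magel2*, *Pdlim4*, *Col1a1*, *Aldh1a2*, *Kitl*, *Cd3e*, *Epcam*, *Krt7*, *Msln*, *Cldn8*, *Krt8*, *Krt18*, *H2ax*, *Odf1*) were chosen after their values were seen. Replicate numbers do not pair the knockout animals. Alternatives were DESeq2 1.42.0, RLE size factors, no filter, at least 10 counts in every library, a threshold of 0.05, each library left out, the replicate number or the code in the sample titles (taken as a litter, which the sources do not state) as a block, and joint fits.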

Additional observations from a re-analysis of the deposited data

Results flagged for a closer look

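The interaction of age and genotype was called for 314 genes, which is a difference between the genotypes in the change from 13 to 21 d.p.p. Genes flagged by it with a more positive change in the knockout were *Cpeb1* (3.12 on the log2 scale), *Cacng4* (3.01) and *Col9a2* (2.39). Those with a more negative change were *Ptchd3* (-11.57), *Tex101* (-9.21), *Ybx2* (-9.13), *Piwil1* (-8.95), *Hormad1* (-8.90), *Ddx4* (-7.22), *H2bc1* (-6.28), *Sycp1* (-5.66), *Pbk* (-4.58), *Kif22* (-2.67) and *Kcnu1* (-2.27). *Lypd9* (-10.06) was called too, but with 0 counts in both older knockout libraries its value is no measure of size. Without knockout replicate 1 of 13 d.p.p. *Tex101*, with at most 5 counts in an older knockout library, was at -6.07 (adjusted p = 0.119). *Kcnu1*, a potassium channel of sperm, stood at 6.93 and 7.33 CPM and then at 4.70 and 4.70 CPM in the knockout (log2 fold change -0.62, adjusted p = 0.0812), and at 4.97 and 5.41 CPM and then at 17.9 and 15.03 CPM in the wild type. The adjusted p of these interactions lay between 0.0015 and 0.0096.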

How the results depend on the processing

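Depth differs between the 8 libraries and each group has 2, so small changes of low genes were not detectable. In the knockout many 2-fold changes may be missed as well, and larger ones in low genes. In the wild type and the interaction many larger changes may be missed too. Higher and lower calls in the knockout (657 and 685) moved to 1124 and 1126 with DESeq2, 1735 and 1571 with no filter on low counts, 214 and 237 in the joint fit of 8 libraries and 1741 and 1768 at an adjusted p below 0.05. RLE size factors, at least 10 counts in every library and the replicate block (921 and 900) kept both within 1.5 times. In the wild type (466 and 88) they were 769 and 370 with DESeq2, 1047 and 533 with no filter, 161 and 39 with at least 10 counts in every library, 889 and 363 with the replicate block, 835 and 445 in the joint fit and 972 and 593 at 0.05. Interactions (5 more positive and 309 more negative in the knockout) were 149 and 819 with DESeq2, 456 and 871 with no filter, 2 and 186 with at least 10 counts, 191 and 913 at 0.05, and 2 more positive with RLE and 9 with the replicate block. With the code in the sample titles as a block, interactions were 7 more positive and 335 more negative. The causes were not tested. With 1 library left out at a time, the knockout gave 427 to 1077 higher and 349 to 1203 lower, the wild type 99 to 625 and 19 to 508, and the interaction 0 to 68 more positive and 1 to 364 more negative; the lone library of a group is there assumed to vary like the others. The wild-type fall to 99 and 28 was without replicate 1 of 13 d.p.p., and to 19 lower without replicate 1 of 21 d.p.p. Deviations of same-numbered knockout libraries had a correlation of -0.152 over 14016 genes, which by itself cannot show whether animals are paired. The titles of the knockout libraries all carry different animal codes. Under the replicate block all 59 called genes named by rule, which leave out *Lmnb1*, *Magel2* and *H2ax*, stayed called. Of these, DESeq2 lost 2, RLE 3 and the joint fit 24, while without 1 library 3 to 19 were lost. Signs of the knockout change turned only for genes that were not called, and only without 1 library, with log2 fold changes from -0.36 to 0.12 for *Col9a2*, -0.29 to 0.093 for *Ddx43*, -0.22 to 1.65 for *Sycp3*, -0.58 to 0.67 for *Cav1*, -0.14 to 0.50 for *Hbb-y* and -0.77 to 0.30 for *Zbtb16*.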

Other observations

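Of 12 chaperones of the endoplasmic reticulum, all tested, *Creld2* alone was called, rising from 53.8 and 38.3 to 146 and 115 CPM (log2 fold change 1.49 ± 0.223 SE, adjusted p = 0.0028). *Hsp90b1*, the most abundant of them, was at 1330.0 and 789.9 CPM and then at 1478 and 1620.0 CPM (log2 fold change 0.53, adjusted p = 0.216), and its replicates of 13 d.p.p. differed more than the ages. Of 12 respiration genes none was called in the main edgeR fit, with 6 higher and 0 lower at an unadjusted p below 0.05. DESeq2 called 3 higher, and edgeR 5 with no filter on low counts and 1 with at least 10 counts in every library. *Atp5j2*, a subunit of ATP synthase, was nearest, at 92.9 and 106.5 CPM and then at 205 and 167 CPM (log2 fold change 0.88, adjusted p = 0.0121), and the uncoupling protein *Ucp2* was at 94.5 and 83.9 CPM and then at 114 and 132 CPM (0.45, adjusted p = 0.0947).

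Of 6 WNT pathway genes 5 were tested and none was called in the main edgeR fit or by DESeq2. The main fit had 0 higher and 1 lower at an unadjusted p below 0.05. With no filter on low counts edgeR called 1 lower. *Wnt6* was at 79.6 and 95.4 CPM and then at 66.4 and 82.5 CPM (log2 fold change -0.25, adjusted p = 0.35), and its receptor class member *Fzd5* at 65.9 and 55.8 CPM and then at 38.1 and 45.4 CPM (-0.56, adjusted p = 0.0498). Skeletal muscle and red blood cell genes, a check for other tissue, showed 0 calls in the main edgeR fit and with DESeq2. There 5 of 6 were tested, with 0 higher and 1 lower at an unadjusted p below 0.05 in the main fit. With no filter on low counts edgeR called 1 of them lower. *Tnni1* was at 14.1 and 13.0 CPM and then at 11.9 and 8.62 CPM (log2 fold change -0.43, adjusted p = 0.176) and *Hbb-y* at 6.05 and 7.92 CPM and then at 9.97 and 6.41 CPM (0.19, adjusted p = 0.643). *Cav1* of endothelium stood at 23.4 and 56.2 CPM and then at 47.7 and 28.4 CPM, with overlapping ages (log2 fold change -0.09, adjusted p = 0.879).

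*Odf1*, a gene of the sperm tail, had 43 counts in knockout replicate 2 of 13 d.p.p. (1.21 CPM) and 0, 1 and 4 counts in the other knockout libraries. Wild type of 13 and 21 d.p.p. lay between 0 and 0.705 CPM.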
